A study of Mus musculus with 16 samples.

Results

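The genes described here are 8 genes of the trophoblast lineage, Elf5, Eomes, Tfap2c, Tead4, Gata3, Hand1, Ascl2 and Plac1, measured in mouse embryonic stem cells (mESCs) that differed in DNA methyltransferases and in culture medium. They were chosen by name, and every non-control probe whose RefSeq accession belongs to 1 of these genes was taken. This gave 9 of the 55681 non-control probes of the array and 8 of the 21171 genes that its probes name. Eomes had 2 probes and each other gene had 1. Total RNA was hybridised to 16 one-colour Agilent 8x60K arrays in 6 groups. Of the 8 genes, 7 were tested, because in 1 or more of the groups each array showed them well above background, and Elf5 was not.

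All lines were made from J1, a wild-type (WT) male mESC line. TKO mESCs are deficient for Dnmt1, which encodes the maintenance DNA methyltransferase, and for Dnmt3a and Dnmt3b, which encode the de novo enzymes. 3B3l mESCs (written 3B3-3l in the sample labels) lack their own Dnmt3a and Dnmt3b and constitutively express Dnmt3b and Dnmt3l from exogenous constructs. Each genotype was represented by a single line, so line and genotype cannot be told apart. Serum medium held foetal calf serum and LIF at 500 U/ml. The serum-free 2i medium held 1 uM PD0325901, an inhibitor of the kinase MEK, 3 uM CHIR99021, an inhibitor of the kinase GSK3, and LIF at 1000 U/ml, and cells were kept in it for 2 weeks. There were 4 arrays of J1-serum, 3 each of J1-2i and TKO-2i, and 2 of each other group. Per the study's methods the J1-serum cells grew on inactivated SNLP feeder cells and all other cultures were feeder-free. In J1 the change of medium was therefore also a change of feeders, and in serum J1 differed from TKO and 3B3l in feeders too. The labels do not say whether replicates came from separate cultures, so p-values measure the spread between these samples only.

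Trophoblast is the first lineage to separate from the embryo proper, and it forms the placenta. Tead4, Gata3 and Tfap2c act early in the trophectoderm, Elf5 and Eomes hold trophoblast stem cells in their state, and Hand1, Ascl2 and Plac1 belong to later trophoblast cells. The promoter of Elf5 is known to be methylated in mESCs and unmethylated in trophoblast stem cells, where it has been described as a barrier between both lineages. DNA methylation itself was not measured on these arrays, and the results below are levels of RNA.

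DNA methyltransferases act on cytosines that precede a guanine (CpG), so the CpG content around the start sites is shown first. RefSeq promoters (build GRCm38.p6) were matched by symbol for 5 of the 8 genes, Elf5, Gata3, Eomes, Ascl2 and Plac1, with 2 start sites each for Elf5 and Plac1. Tfap2c, Hand1 and Tead4 are named only. The windows span 250 bases before to 50 bases after a start site. The lines below give the 250 bases before the start site, 5′ to 3′ on the strand of the gene, for the gene that stayed at background on nearly every array (Elf5), for a pair of genes that were at background in 2i (Gata3 and Plac1) and for a gene that rose in 2i (Eomes), with each CpG in capitals.
Elf5 start 1 (chr2:103411848-103412097, plus strand): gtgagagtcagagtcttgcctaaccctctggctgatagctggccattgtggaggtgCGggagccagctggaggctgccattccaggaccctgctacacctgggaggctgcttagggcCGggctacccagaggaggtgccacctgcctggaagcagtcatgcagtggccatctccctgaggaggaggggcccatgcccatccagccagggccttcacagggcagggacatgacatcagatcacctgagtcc
Elf5 start 2 (chr2:103423818-103424067, plus strand): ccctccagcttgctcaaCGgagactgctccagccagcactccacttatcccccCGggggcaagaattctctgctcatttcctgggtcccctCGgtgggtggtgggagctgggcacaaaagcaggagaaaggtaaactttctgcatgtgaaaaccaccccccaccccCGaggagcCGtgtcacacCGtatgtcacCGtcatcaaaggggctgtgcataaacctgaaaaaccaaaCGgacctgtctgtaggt
Gata3 (chr2:9878601-9878850, minus strand): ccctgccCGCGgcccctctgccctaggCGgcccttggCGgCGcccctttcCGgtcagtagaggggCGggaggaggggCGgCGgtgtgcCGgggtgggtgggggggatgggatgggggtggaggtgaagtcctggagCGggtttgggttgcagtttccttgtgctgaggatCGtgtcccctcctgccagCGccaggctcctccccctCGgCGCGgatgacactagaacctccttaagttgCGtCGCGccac
Plac1 start 1 (chrX:53240111-53240360, minus strand): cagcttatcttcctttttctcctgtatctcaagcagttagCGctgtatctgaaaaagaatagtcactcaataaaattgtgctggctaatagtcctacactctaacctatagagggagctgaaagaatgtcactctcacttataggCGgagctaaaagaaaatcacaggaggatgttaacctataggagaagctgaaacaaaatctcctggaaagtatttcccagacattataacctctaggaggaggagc
Eomes (chr9:118477939-118478188, plus strand): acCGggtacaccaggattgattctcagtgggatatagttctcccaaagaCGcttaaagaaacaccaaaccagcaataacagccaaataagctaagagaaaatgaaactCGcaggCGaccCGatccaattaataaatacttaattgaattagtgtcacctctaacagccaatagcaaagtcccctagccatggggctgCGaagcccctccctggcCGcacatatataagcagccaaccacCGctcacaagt

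The first start site of Elf5 had 3 CpG in its window of 300 bases and the second had 10. The Gata3 window had 22, that of Ascl2 23 and that of Eomes 10, and the windows of Plac1 had 3 and 6. The motif searched was CG, which reads the same on both strands and overlaps no other motif searched. Over 32841 promoter windows of the same length the median was 7 CpG (interquartile range 3 to 20), and 94.6% held at least 1. Gata3 and Ascl2 therefore lay above the upper quartile, and the first windows of Elf5 and Plac1 lay at the lower quartile. Of the genes at background in 2i, Gata3 thus had a CpG-rich window, while those of Plac1 lay at the lower quartile (3) and just under the median (6). Hand1 had no window, and which start site these cells use was not measured.

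**Figure D1:**
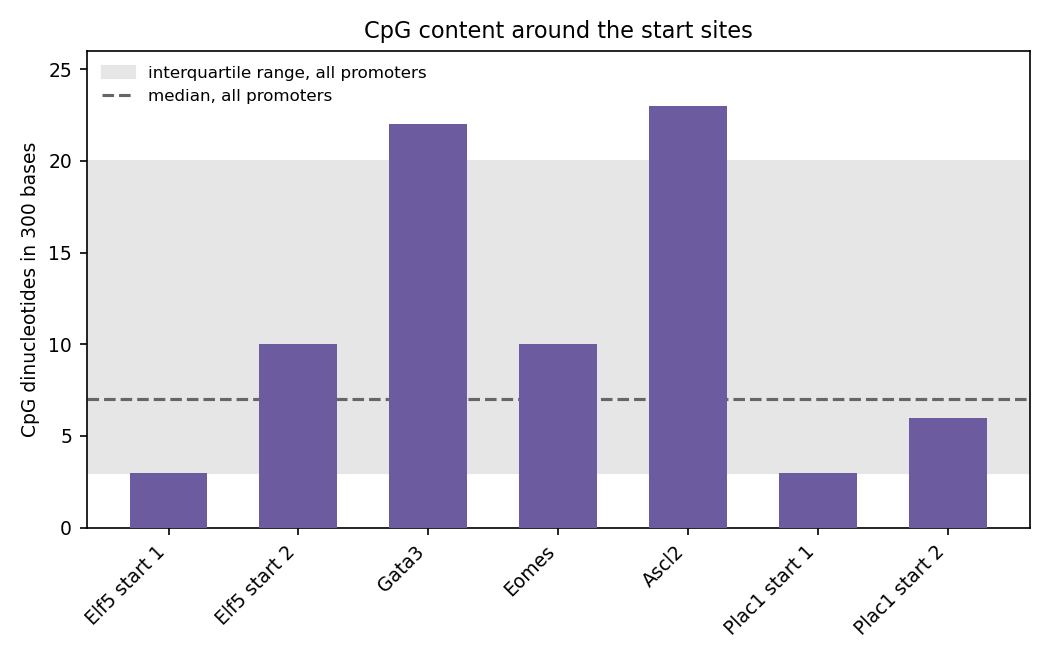
Number of CpG dinucleotides in the 300 bases around each RefSeq start site (bars) for the 5 genes with a promoter window, against the median (dashed line, 7) and interquartile range (grey band, 3 to 20) of 32841 promoter windows. Gata3 (22) and Ascl2 (23) stand above the band, and the first windows of Elf5 and Plac1 have 3 each.

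Values are log2 of the processed signal after the 75th percentile of that array was subtracted. A signal that Feature Extraction marked as well above background is called above background here, and levels that were not so marked have no order among themselves. Between 39.5% and 48.8% of the spots of an array were above background, and none of the 8 genes was saturated on any array. The labels were checked on the methyltransferase genes. Dnmt3a was above background on all J1 arrays and on none of the TKO or 3B3l arrays. The mean of Dnmt1 was 1.79 in J1-serum and -1.69 in TKO-serum, and that of Dnmt3b was 2.95 in J1-serum, -0.36 in TKO-serum and 5.52 in 3B3l-serum. All 7 stem cell markers examined (Pou5f1, Sox2, Nanog, Zfp42, Esrrb, Klf4 and Dppa5a) were above background on all 16 arrays. The arrays lay on 3 slides, and all 3B3l arrays lay on slide 3 with J1-serum replicate 1.

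**Figure D2:**
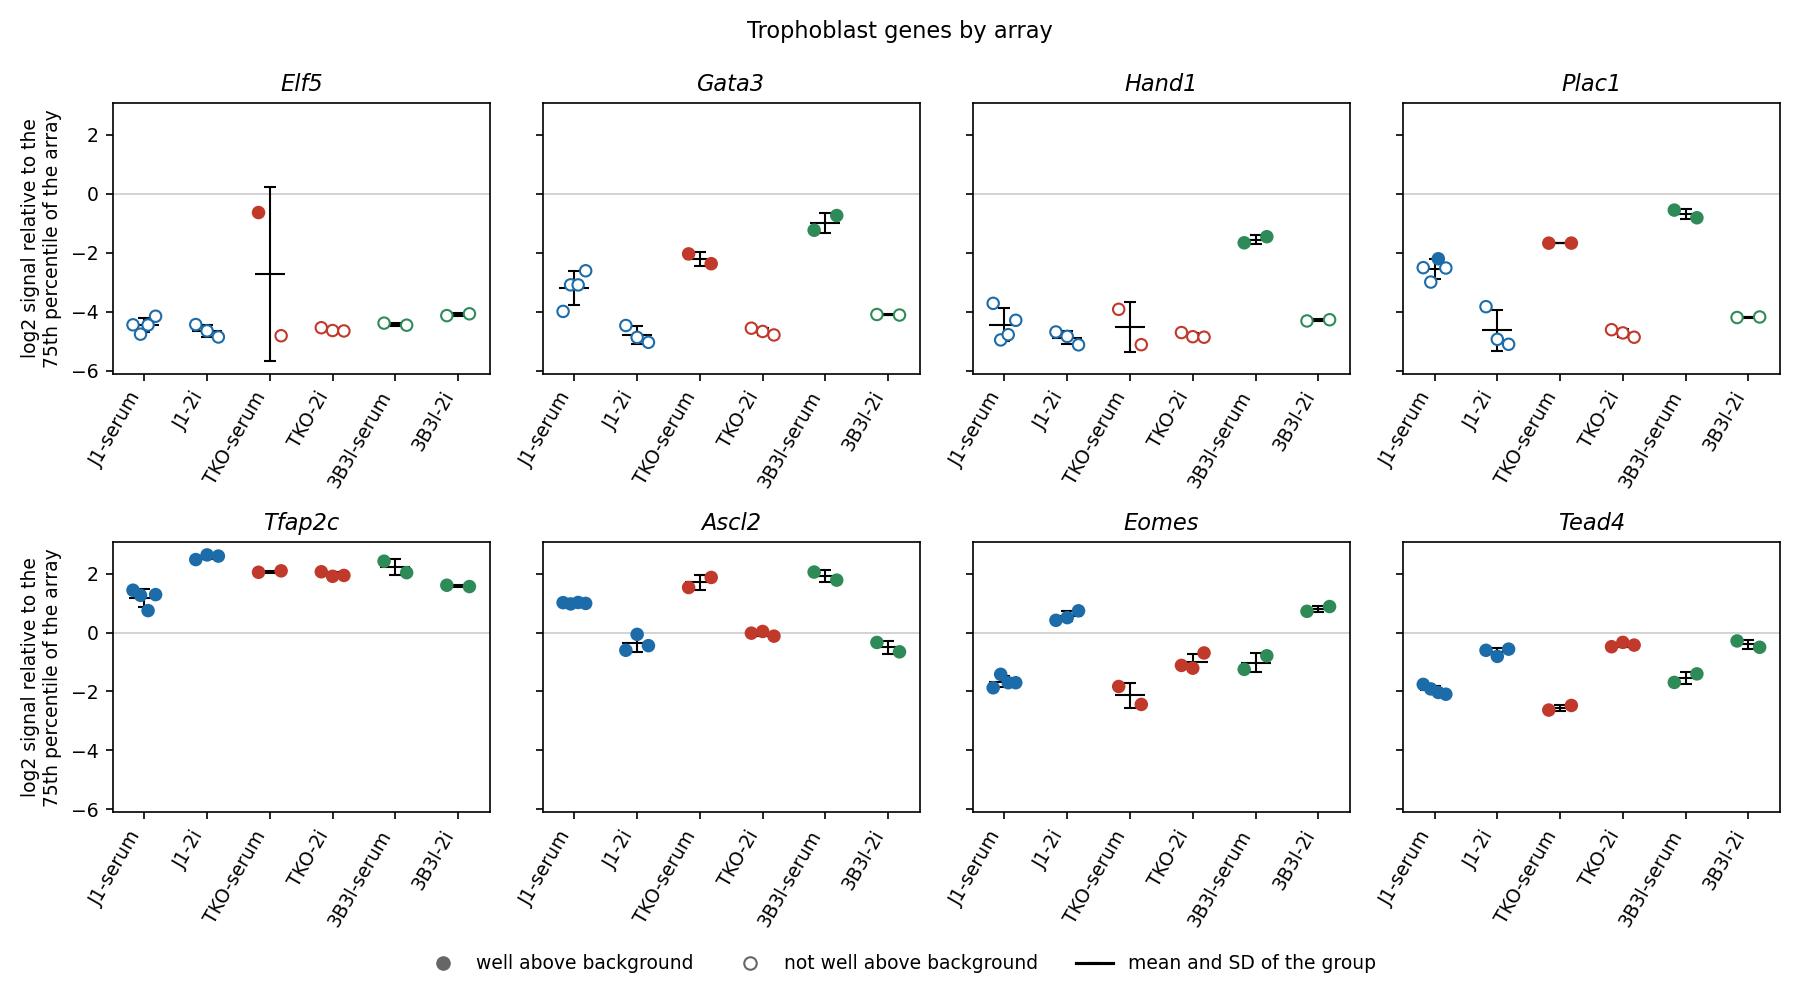
Log2 signal scaled to the array's 75th percentile (y axis) for the 8 trophoblast genes on each of the 16 arrays, by group (x axis), with the mean and SD of each group as bars. Filled points are above background and open points are not. Elf5 is filled on 1 array, Gata3 on 4, Hand1 on 2 and Plac1 on 5, all of them serum arrays, while Tfap2c, Ascl2, Eomes and Tead4 are filled on all 16.

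Elf5, an ETS-domain transcription factor of trophoblast stem cells, was not above background on 15 of 16 arrays. The exception was TKO-serum replicate 1, at -0.64. The other TKO-serum array was at -4.82, and the remaining 14 arrays lay between -4.86 and -4.07. Both TKO-serum arrays thus disagreed by 4.18 log2 units on the same probe. Between the same 2 arrays, 204 of the 55681 probes were above background on 1 array only and differed by more than 8-fold, and over the 15 pairs of arrays of the same group this number ran from 104 to 335. The single Elf5 value was not reproduced by its replicate, and whether it came from the array or from the culture was not tested. In TKO-2i, which carries the same deletions, Elf5 was at -4.55, -4.64 and -4.66 and above background on none of the 3 arrays. Elf5 was not tested, since it was not above background on every array of any group.

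Eomes, a T-box factor of trophoblast stem cells that also acts in the early mesendoderm, was above background on all 16 arrays by its brighter probe. The J1-serum arrays were at -1.87, -1.42, -1.70 and -1.70, and the J1-2i arrays at 0.42, 0.51 and 0.74. TKO-serum was at -1.83 and -2.44, and TKO-2i at -1.12, -1.21 and -0.69. In 3B3l the serum arrays were at -1.25 and -0.79 and the 2i arrays at 0.72 and 0.88. In every line the 2i arrays lay above the serum arrays with no overlap, and the TKO-2i arrays overlapped with those of 3B3l-serum. The order of the group means ran from 3B3l-2i and J1-2i, whose ranges overlapped, over TKO-2i and 3B3l-serum to J1-serum and TKO-serum, whose ranges also overlapped. The second Eomes probe was dimmer and was above background on the 3 J1-2i arrays (-1.72, -1.24 and -1.33) and both 3B3l-2i arrays (-0.72 and -0.85) and on no other array.

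Tfap2c, which encodes the AP-2 gamma factor of the trophectoderm and the germ line, was above background on all 16 arrays. In J1-serum the arrays were at 1.44, 1.26, 0.74 and 1.29, and in J1-2i at 2.48, 2.64 and 2.60. The TKO arrays were at 2.05 and 2.09 in serum and at 2.06, 1.91 and 1.94 in 2i. The 3B3l arrays were at 2.42 and 2.03 in serum and at 1.61 and 1.56 in 2i. J1-2i was the highest group and J1-serum the lowest, with no overlap with any other group, and both TKO groups and 3B3l-serum overlapped with each other between them. The 2i arrays lay above the serum arrays in J1 and below them in 3B3l.

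Tead4, the TEAD factor that starts the trophectoderm programme downstream of Hippo signalling, was above background on all 16 arrays and was higher in 2i than in serum in each line without overlap. J1-serum was at -1.76, -1.91, -2.03 and -2.09, and J1-2i at -0.60, -0.81 and -0.56. TKO-serum was at -2.63 and -2.47, below every other array, and TKO-2i was at -0.48, -0.33 and -0.43. 3B3l-serum was at -1.69 and -1.40 and 3B3l-2i at -0.28 and -0.50. The ranges of 3B3l-2i and TKO-2i overlapped, and all other neighbours in the order of the groups were apart.

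Gata3, a zinc-finger factor that acts beside Cdx2 in the trophectoderm, was above background on both TKO-serum arrays (-2.04 and -2.37) and both 3B3l-serum arrays (-1.24 and -0.74) and on no other array. The J1-serum arrays were at -3.99, -3.09, -3.09 and -2.61 and not above background. On the 8 arrays of cells in 2i the values lay between -5.04 and -4.10. 3B3l-serum was thus the highest group, followed by TKO-serum, without overlap.

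Hand1, a basic helix-loop-helix factor needed for trophoblast giant cells, was above background on both 3B3l-serum arrays (-1.66 and -1.46) and nowhere else. The other 14 arrays lay between -5.13 and -3.72, and both TKO-serum arrays, at -3.92 and -5.12, were among them.

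Ascl2, the imprinted factor that maintains the precursors of the spongiotrophoblast, was above background on all 16 arrays. The J1-serum arrays were at 1.01, 0.97, 1.02 and 0.99, and the J1-2i arrays at -0.60, -0.06 and -0.44. TKO-serum was at 1.53 and 1.87 and TKO-2i at -0.02, 0.04 and -0.12. In 3B3l the arrays were at 2.05 and 1.78 in serum and at -0.34 and -0.65 in 2i. Every serum array lay above every 2i array, both modified lines lay above J1 in serum, and in 2i the TKO and 3B3l ranges each overlapped with that of J1 and not with each other.

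Plac1, an X-linked gene of the placenta, was above background on 1 of 4 J1-serum arrays (-2.20, the others at -2.51, -3.0 and -2.52), on both TKO-serum arrays (-1.67 each) and on both 3B3l-serum arrays (-0.55 and -0.81). The 8 arrays in 2i lay between -5.11 and -3.83, none above background. In serum the 3 lines were in the same order as for Gata3, 3B3l above TKO above J1, without overlap.

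The comparison of 2i with serum within each line asked how the genes respond to the medium. A gene was called at a Benjamini-Hochberg adjusted p of at most 0.05 in limma over 26990 probes and a change of at least 2-fold. Eomes and Tead4 rose in all 3 lines, and Ascl2 and Plac1 fell in all 3. In J1, 6 of the 7 tested genes were called, against 22.6% of 13858 genes (10.1% higher and 12.5% lower). In TKO 5 were called, against 15.8% of all genes (6.78% higher and 8.98% lower), and in 3B3l 6, against 13.6% (5.65% higher and 7.92% lower). Among all tested genes, 2.06% were called higher in all 3 lines and 3.59% lower in all 3. The median log2 difference of the 7 genes was -0.45 in J1, -0.29 in TKO and -2.41 in 3B3l, beside 0.06, 0.08 and 0.01 over all genes. In J1 and TKO this median is the fitted value of Hand1, which was above background in neither medium there, so it is not a measured difference. Gata3, Hand1 and Plac1 passed the filter on low signals through serum groups alone, and without them 4 genes remain, of which 4 were called in J1, 3 in TKO and 3 in 3B3l.

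Eomes rose 4.68-fold in J1 (log2 difference 2.23 ± 0.18 SE, limma adjusted p = 4.72e-07), 2.19-fold in TKO (1.13 ± 0.22, limma adjusted p = 0.00139) and 3.53-fold in 3B3l (1.82 ± 0.24, limma adjusted p = 8.97e-05). The value in TKO fell below 2-fold without TKO-serum replicate 2 (log2 difference 0.82) or TKO-2i replicate 3 (0.97), and also when the background was corrected by normexp (0.90). Tead4 rose 2.45-fold in J1 (1.29 ± 0.11, limma adjusted p = 9.02e-07), 4.4-fold in TKO (2.14 ± 0.14, limma adjusted p = 1.07e-07) and 2.23-fold in 3B3l (1.16 ± 0.15, limma adjusted p = 7.51e-05). Both genes therefore rose in cells without functional DNA methyltransferases as well as in WT cells.

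Tfap2c was called in J1 and not in TKO or 3B3l. It rose 2.61-fold in J1 (log2 difference 1.39 ± 0.15 SE, limma adjusted p = 5.48e-06). In TKO the difference was -0.10 ± 0.18 (limma adjusted p = 0.71). In 3B3l it was -0.64 ± 0.19 (limma adjusted p = 0.0276), which is under 2-fold and not called.

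Ascl2 fell 2.58-fold in J1 (log2 difference -1.37 ± 0.14 SE, limma adjusted p = 3.12e-06), 3.33-fold in TKO (-1.73 ± 0.16, limma adjusted p = 3.68e-06) and 5.32-fold in 3B3l (-2.41 ± 0.18, limma adjusted p = 6.46e-07). Plac1, Gata3 and Hand1 were below background in 2i, so their falls are lower bounds, taken from the mean of the brighter group over, for each array of the other, the higher of its lowest signal above background and the gene's own signal. Plac1 was at least 1.82-fold lower in 2i in J1 (limma adjusted p = 2.44e-05), where 1 of 4 serum arrays was above background. The bound was 3.2-fold in TKO (limma adjusted p = 7.09e-06) and 3.11-fold in 3B3l (limma adjusted p = 7.05e-06). Gata3 was at least 2.21-fold lower in TKO (limma adjusted p = 5.08e-05) and at least 2.52-fold lower in 3B3l (limma adjusted p = 2.09e-05). In J1 the fit also called Gata3 lower in 2i (limma adjusted p = 0.000234), but neither J1 group was above background, and no fold is given. Hand1 was at least 1.70-fold lower in 3B3l (limma adjusted p = 0.000182) and not called in J1 (limma adjusted p = 0.244).

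**Figure D3:**
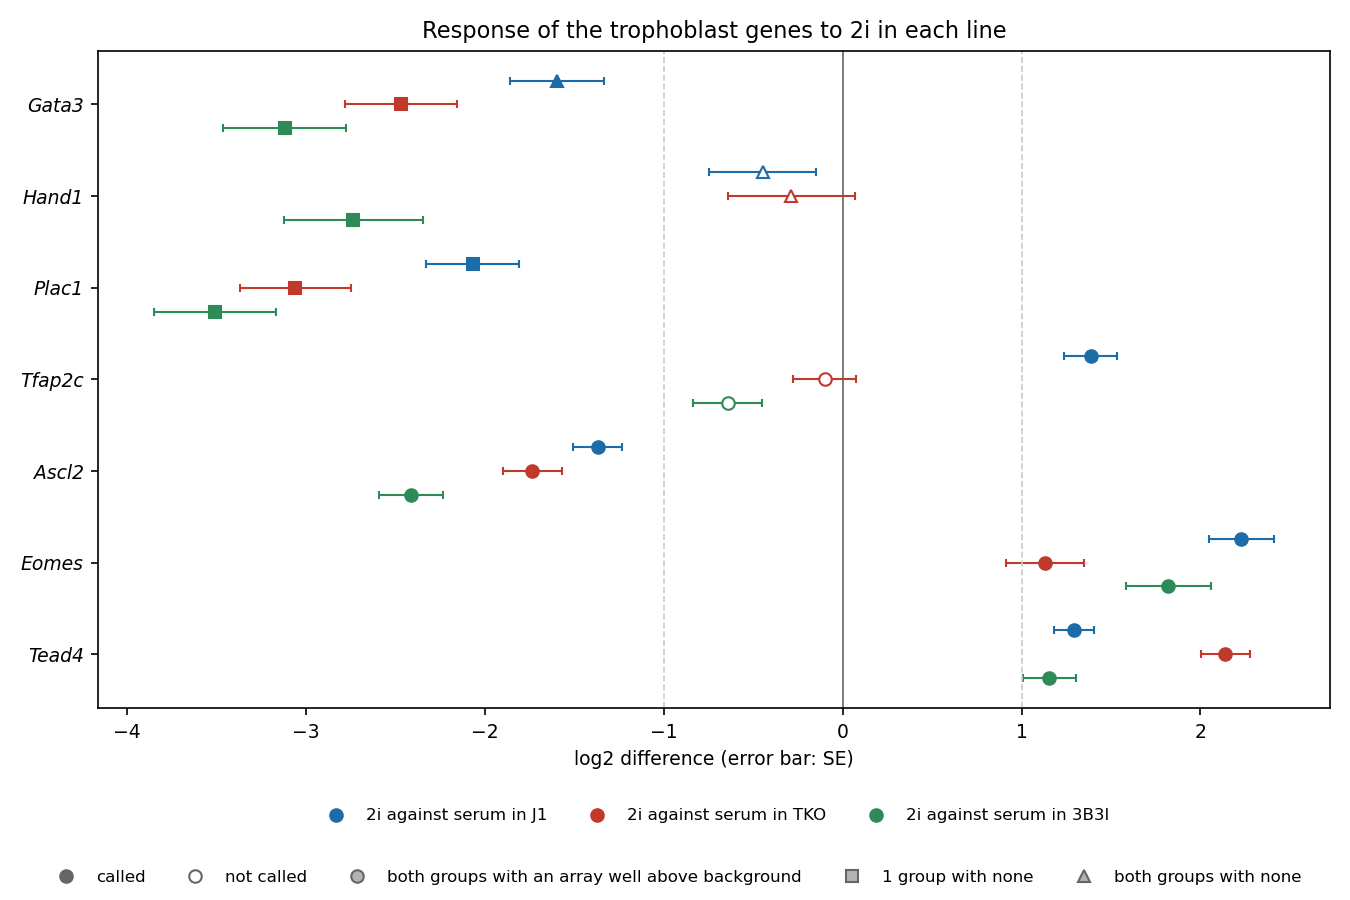
Log2 difference of 2i minus serum (x axis) with its SE for each tested trophoblast gene (rows) in J1, TKO and 3B3l (colours). Filled symbols are called, circles have an array above background in both groups, squares in 1 group, triangles in neither (fitted values, not measured folds, for squares and triangles), and dashed lines mark a 2-fold change. Eomes and Tead4 lie to the right of the right dashed line in all 3 lines of cells and Ascl2 and Plac1 to the left of the left one, while Tfap2c is at 1.39 in J1, -0.10 in TKO and -0.64 in 3B3l.

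Other markers moved between the same groups. The summed signal of 12 fibroblast markers, in multiples of the 75th percentile of the array, was 50.1 to 61.8 in J1-serum, 12.2 to 12.4 in TKO-serum and 37.1 to 37.8 in 3B3l-serum, against 2.02 to 2.26, 2.65 to 3.08 and 3.60 to 3.70 in the same lines in 2i. Of the 12, 9 were above background on all J1-serum arrays, 7 on all TKO-serum and 7 on all 3B3l-serum arrays, among them Col1a1, Col1a2, Col3a1 and Acta2, and 4, 7 and 5 in the same lines in 2i. Lum was above background on no array of any group, and Postn and Dcn on no TKO-serum or 3B3l-serum array. The sum of 8 primitive endoderm markers was 81.0 to 98.8 in J1-serum and 41.3 to 46.7 in J1-2i, 44.0 to 45 and 51.1 to 54.8 in TKO, and 50.5 to 54.9 and 31.1 to 34.0 in 3B3l. The sums of this list need not follow its single genes, as 0 of the 8 were called higher in 2i in any line, while 7 were called lower in J1, 4 lower in TKO and 3 lower in 3B3l. The 8 mesendoderm markers, a lineage in which Eomes also acts, summed to 0.676 to 0.860 in J1-serum and 0.975 to 1.2 in J1-2i. In TKO they summed to 0.964 to 1.35 in serum and 1.35 to 1.60 in 2i, and in 3B3l to 1.17 to 1.44 and 1.64 to 1.74. Single markers of this list moved more. Gsc was at least 3.84-fold higher in 2i in J1 (limma adjusted p = 3.65e-08) and at least 6.94-fold higher in TKO (limma adjusted p = 1.06e-06). T was at least 2.40-fold higher in 2i in TKO (limma adjusted p = 1.89e-06), where 1 of 3 arrays was above background, and at least 3.54-fold higher in 3B3l (limma adjusted p = 2.78e-05). Wnt3 was above background on both 3B3l-serum arrays and nowhere else, and Mixl1 and Evx1 were on no array. The part of these cells in the results was not tested, and in bulk RNA fewer cells of a type and less RNA per cell cannot be told apart.

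TKO was compared with J1 to ask whether the genes are higher where the DNA methyltransferases are absent. In serum J1 alone grew on feeders, so line and feeders cannot be told apart there. Of 9 tested fibroblast markers, 0 were called higher and 9 lower in TKO-serum than in J1-serum, and of 8 primitive endoderm markers 0 and 7. The part of feeders was not tested. In serum none of the 7 tested genes was called, against 16.4% of all genes (7.71% higher and 8.73% lower). At an unadjusted p under 0.05, 4 genes were higher and 2 lower, and 5 had an adjusted p of at most 0.05 at any fold. The median log2 difference of the 7 genes was 0.70, beside 0.01 over all genes. Tfap2c was 0.89 ± 0.17 SE higher (limma adjusted p = 0.000982), Ascl2 0.70 ± 0.16 higher (limma adjusted p = 0.00303) and Plac1 0.88 ± 0.30 higher (limma adjusted p = 0.0311) on the log2 scale, the last with 1 of 4 J1-serum arrays above background. Gata3, which was above background in TKO-serum and not in J1-serum, was at least 1.55-fold higher (limma adjusted p = 0.0183). Its fitted fold of 1.99 was just under the limit. The fitted log2 difference passed the limit without J1-serum replicate 2, 3 or 4 or TKO-serum replicate 2 (1.03, 1.02, 1.18 and 1.16) and was smaller without J1-serum replicate 1 (0.73) or TKO-serum replicate 1 (0.82), with slide as a block (0.70) and under normexp (0.50), where it was not called. It was also called under array median scaling (1.02), quantile normalization (1.07) and the authors' table (1.05). Tead4 went the other way, with a log2 difference of -0.60 ± 0.13 (limma adjusted p = 0.00231), and Eomes was at -0.46 ± 0.21 (limma adjusted p = 0.0994). On slide 1, which held 2 arrays of each group, the difference was 1.05 for Tfap2c, and Gata3 was above background on both TKO-serum arrays and on neither J1-serum array. With slide as a block Tfap2c passed the limit, at 1.03 (limma adjusted p = 0.000606).

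In 2i, 1 of the 7 genes was called between TKO and J1, against 7.32% of all genes (3.8% higher and 3.52% lower). Eomes was 2.95-fold lower in TKO-2i than in J1-2i (log2 difference -1.56 ± 0.19 SE, limma adjusted p = 0.000102), with values of -1.53 on slide 1 and -1.62 on slide 2. By the second probe it was at least 3.16-fold lower (limma adjusted p = 1.58e-05). Gata3, Hand1 and Plac1 were above background in neither group. Tfap2c was lower by less than 2-fold (-0.60 ± 0.16, limma adjusted p = 0.0160). None of the 7 tested genes was thus called higher in TKO than in J1 in either medium. The methylation-regulated germline genes Dazl (log2 difference 2.33 ± 0.21), Fkbp6 (2.86 ± 0.15) and Asz1 (at least 10.3-fold), which served as a reference, were all called higher in TKO-serum than in J1-serum.

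3B3l was compared with J1 to ask how the genes stand in cells with constitutive Dnmt3b and Dnmt3l and no endogenous Dnmt3a or Dnmt3b. This comparison uses the same J1 arrays as that of TKO, and in serum it also sets feeder-free cells against cells on feeders. Of 9 tested fibroblast markers, 0 were called higher and 6 lower in 3B3l-serum than in J1-serum, and of 8 primitive endoderm markers 0 and 7. In serum 4 of the 7 genes were called, all higher in 3B3l, against 19.3% of all genes (9.99% higher and 9.32% lower). The median log2 difference of the 7 genes was 1.04, and that of all genes was 0.14. Hand1 passed the filter on low signals through 3B3l-serum alone, and Gata3 and Plac1 through 3B3l-serum and TKO-serum, so this count includes genes admitted by the group in which they were high. With probes above background on all 16 arrays, 1 gene was called. Gata3 was at least 3.61-fold higher (limma adjusted p = 5.71e-05) and Hand1 at least 2.51-fold higher (limma adjusted p = 1.80e-05). Plac1 was 3.66-fold higher (1.87 ± 0.30 SE, limma adjusted p = 0.000204), with 1 of the 4 J1-serum arrays above background. Tfap2c was 2.06-fold higher (1.04 ± 0.17, limma adjusted p = 0.000235). Ascl2 (0.92 ± 0.16, limma adjusted p = 0.000361), Eomes (0.66 ± 0.21, limma adjusted p = 0.0205) and Tead4 (0.40 ± 0.13, limma adjusted p = 0.0217) were higher by less than 2-fold.

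The 3B3l-serum arrays shared slide 3 with J1-serum replicate 1 alone. On that array Gata3, Hand1 and Plac1 were not above background, while they were on both 3B3l-serum arrays, and the log2 difference of Tfap2c was 0.79. With slide as a block Tfap2c was no longer called, at 0.79 (limma adjusted p = 0.0143), nor was it without J1-serum replicate 3 (0.90) or 3B3l-serum replicate 1 (0.85). Quantile normalization moved the median of all tested probes from 0.16 to 0.04 in this comparison, and under it Gata3, Hand1 and Plac1 were called higher and Tfap2c, at 0.90, was not. In 2i none of the 7 genes was called between 3B3l and J1, against 14.4% of all genes (7.88% higher and 6.48% lower). At an unadjusted p under 0.05, 1 was higher and 1 lower. Tfap2c was at -0.99 ± 0.18 (limma adjusted p = 0.000924), a 1.98-fold difference just under the limit, which it passed without J1-2i replicate 1 (-1.03) or 3B3l-2i replicate 1 (-1.01). It also passed under array median scaling (-1.004), quantile normalization (-1.06), normexp (-1.01), the authors' table (-1.06) and the replicate block (-1.05). With slide as a block 2 genes were called, Tfap2c at -1.32 (limma adjusted p = 0.00629) and Gata3 (limma adjusted p = 0.00773), which was above background in neither group. These 2 groups shared no slide.

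**Figure D4:**
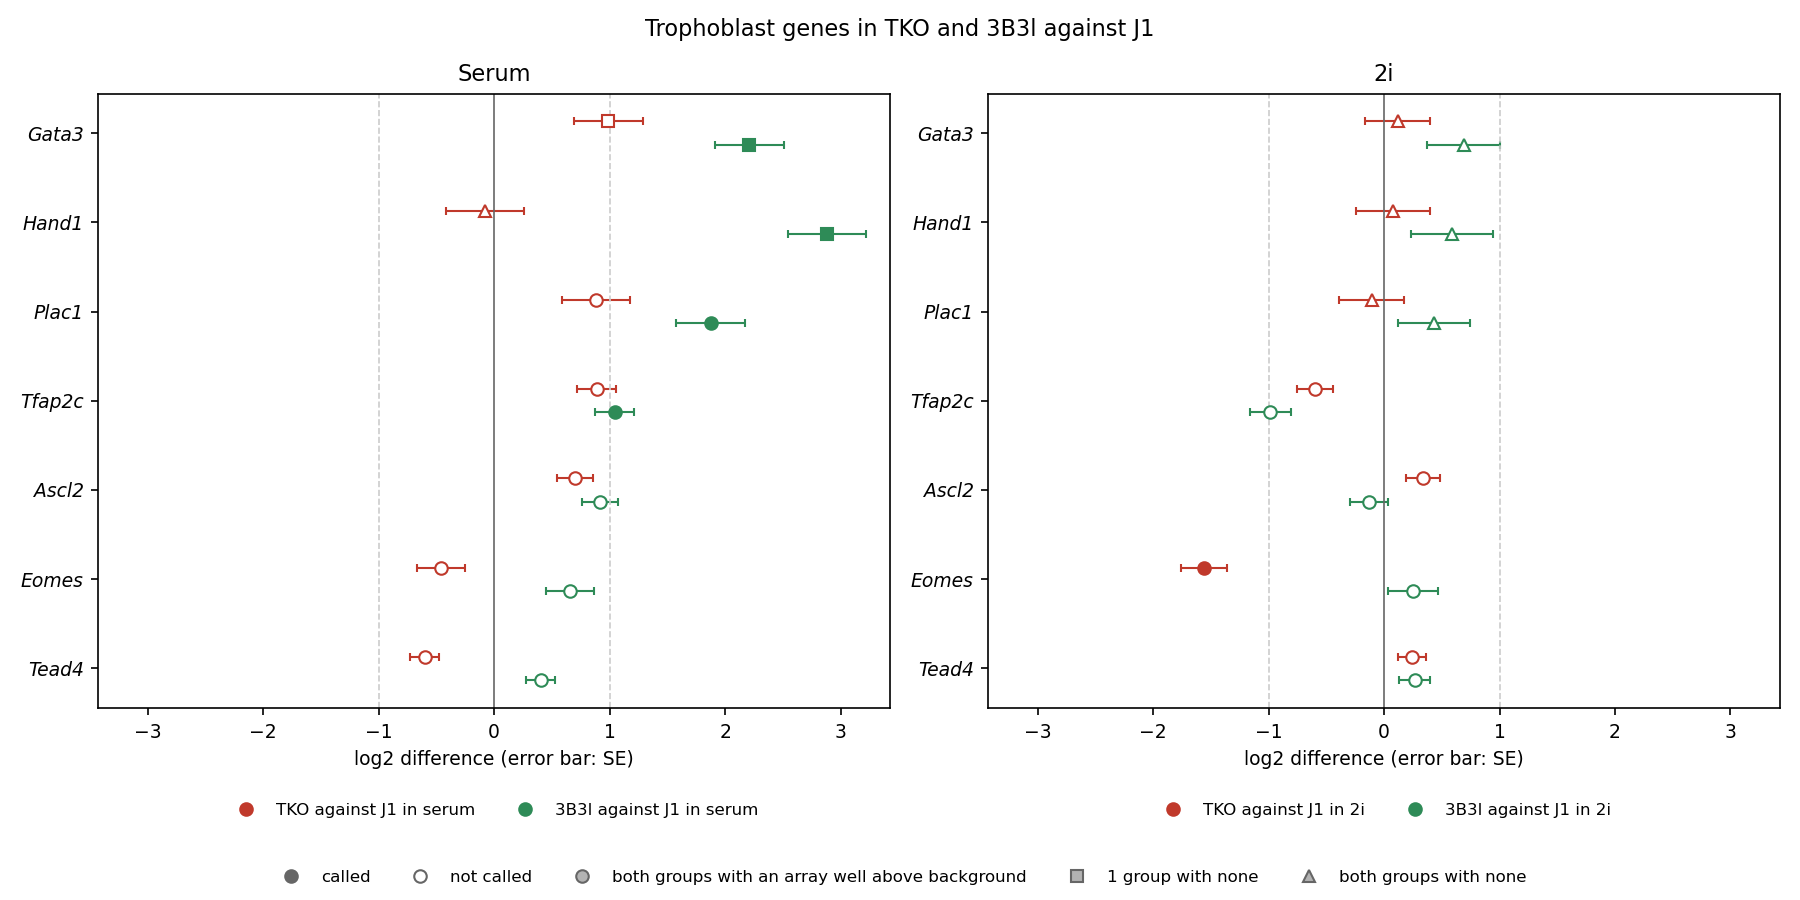
Log2 difference (x axis) with its SE of TKO and of 3B3l (colours) against J1 for each tested trophoblast gene (rows), in serum (left) and in 2i (right). Filled symbols are called, circles have an array above background in both groups, squares in 1 group, triangles in neither, and dashed lines mark a 2-fold change. In serum Gata3, Hand1, Plac1 and Tfap2c are filled for 3B3l and no gene is filled for TKO, and in 2i Eomes is filled for TKO, at -1.56.

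The direct comparison of both modified lines asked how loss of all DNA methyltransferases compares with constitutive Dnmt3b and Dnmt3l. In serum 4 of the 7 genes were called, all lower in TKO than in 3B3l, against 10.7% of all genes (5.43% higher and 5.27% lower). The median log2 difference of the 7 genes was -1.0, beside -0.14 over all genes. Hand1 passed the filter on low signals through 3B3l-serum alone, the group in which it was high, and with probes above background on all 16 arrays 2 genes were called. Hand1 was at least 4.0-fold lower in TKO (limma adjusted p = 0.000148), Gata3 2.33-fold lower (-1.22 ± 0.34 SE, limma adjusted p = 0.0192), Eomes 2.17-fold lower (-1.12 ± 0.24, limma adjusted p = 0.00434) and Tead4 2.01-fold lower (-1.0 ± 0.15, limma adjusted p = 0.000356). The number called was 2 without TKO-serum replicate 2, where Gata3 (-1.05) and Eomes (-0.81) were lost, and 1 without 3B3l-serum replicate 2, where Gata3 (-0.97), Eomes (-0.89) and Tead4 (-0.86) were lost. Tead4 was also lost without TKO-serum replicate 1 (-0.93), with slide as a block (-0.77), and under quantile normalization (-0.96), which moved the median of all tested probes from -0.12 to -0.0009. In 2i Eomes was the 1 gene called, 3.50-fold lower in TKO (-1.81 ± 0.22, limma adjusted p = 6.38e-05), against 9.95% of all genes (5.29% higher and 4.66% lower). TKO and 3B3l arrays shared no slide.

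The difference between lines in the response to 2i was tested as an interaction in the same model. The J1 response included the loss of feeders, and those of TKO and 3B3l did not. Against J1, both TKO and 3B3l had 8 of 9 fibroblast and 7 of 8 primitive endoderm markers called higher in this test, and 0 lower. The part of feeders was not tested. Between TKO and J1, 2 of the 7 genes were called, both lower, against 15.2% of all genes (7.79% higher and 7.46% lower). The response of Tfap2c in TKO minus that in J1 was, in log2 units, -1.49 ± 0.23 SE (limma adjusted p = 0.000437), and that of Eomes was -1.10 ± 0.28 (limma adjusted p = 0.0125). The Eomes difference was not called without TKO-serum replicate 1 (-0.79) or TKO-2i replicate 2 (-0.996), where the fold was under the limit. The second probe was above background on no J1-serum or TKO array, so it gave fitted values only. Its difference was not called in the main fit (-0.80, limma adjusted p = 0.0280). It was called after quantile normalization (-1.27) and in the authors' table (-1.25). For Tead4 the difference was 0.85 ± 0.18 (limma adjusted p = 0.00345), under 2-fold.

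Between 3B3l and J1, 5 of the 7 genes were called, all with a lower response in 3B3l, against 17.2% of all genes (8.64% higher and 8.56% lower). Gata3, Hand1 and Plac1 passed the filter on low signals through serum groups alone, Hand1 through 3B3l-serum only. This count therefore includes genes admitted where they were high, and without them Tfap2c and Ascl2 remain. The values were -2.03 ± 0.24 SE for Tfap2c (limma adjusted p = 5.42e-05) and -1.04 ± 0.23 for Ascl2 (limma adjusted p = 0.00416). Hand1, Gata3 and Plac1 were not above background in 2i in either line, nor were Hand1 and Gata3 in J1-serum. The size of their difference in response could therefore not be measured, although the fit called them. The number called in the fit was 3 without 3B3l-serum replicate 1 or 3B3l-2i replicate 1, and 2 without 3B3l-2i replicate 2. Gata3 was lost without either 3B3l-2i array or 3B3l-serum replicate 2, Plac1 without either 3B3l-2i array or 3B3l-serum replicate 1, and Ascl2 without J1-2i replicate 2, 3B3l-serum replicate 1 or 3B3l-2i replicate 2. Ascl2 was also lost in the authors' table (-0.95) and after quantile normalization (-0.93). Tfap2c and Hand1 stayed called without any 1 array. For Tfap2c, Eomes, Ascl2 and Tead4, the genes above background on all arrays, called differences between groups that span several slides gave 14 values between arrays of a single slide, and all 14 had the sign of the pooled value, with sizes from 0.79 to 2.28. The 3B3l arrays all lay on slide 3, so their response to 2i is itself a value within 1 slide.

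Lists of other genes of the lineage were examined beside these, and several genes stand on more than 1 list (Sox2 and Esrrb are also stem cell markers). Their counts stand beside the shares over all genes, which in 2i were 10.1% higher and 12.5% lower in J1, 6.78% and 8.98% in TKO, and 5.65% and 7.92% in 3B3l. In serum these shares were 9.99% higher and 9.32% lower in 3B3l than in J1, and 7.71% and 8.73% in TKO. Of 12 genes of trophoblast stem cells, 6 were called higher and 0 lower in 3B3l-serum than in J1-serum (median 1.11 on the log2 scale), and 1 higher and 1 lower in TKO-serum. In 2i against serum, 4 rose and 3 fell in J1, 2 rose and 3 fell in TKO, and 1 rose and 2 fell in 3B3l. Cdx2, the factor that sets trophectoderm apart, did not follow a single pattern. Its mean was -2.76 in J1-serum and -4.94 in J1-2i, -4.72 in TKO-serum and -1.97 in TKO-2i, and -0.51 and -0.06 in 3B3l. Cdx2 was at least 1.58-fold lower in 2i in J1, where only 1 of 4 serum arrays was above background. In TKO it was at least 3.02-fold higher in 2i and was not above background in serum. Id2, an inhibitor of basic helix-loop-helix factors, fell in all 3 lines in 2i with log2 differences of -4.14 in J1, -3.54 in TKO and -5.65 in 3B3l, where 1 of 2 arrays in 2i was above background. Tfap2a, the paralogue of Tfap2c, rose in all 3, by 3.54, 2.47 and 1.35, with 1 of 4 J1-serum arrays above background. Sox21 rose in J1 (2.02) and fell in TKO (-1.05) and 3B3l (-1.65, with 1 of 2 3B3l-2i arrays above background).

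Of 18 genes of differentiated trophoblast, 14 were tested, and 7 of them fell in 2i in J1, 7 in TKO and 8 in 3B3l, while none was called higher, against 12.5%, 8.98% and 7.92% of all genes lower. Cdkn1c, an imprinted inhibitor of the cell cycle, had log2 differences of -4.44 in J1 and -4.27 in TKO, where 2 of 3 J1-2i and 1 of 3 TKO-2i arrays were above background, and was at least 10.9-fold lower in 2i in 3B3l. Cdh3, or P-cadherin, fell by 1.98 in J1, and its differences in TKO and 3B3l were -1.83 and -2.06. Esx1, an X-linked homeobox gene of the placenta, fell by 2.51 in J1, with 2 of 3 J1-2i arrays above background, and was at least 2.48-fold lower in 2i in TKO and at least 2.57-fold lower in 3B3l. Gata2, the paralogue of Gata3, fell by 1.53 in J1, with 1 of 3 J1-2i arrays above background, and was at least 2.28-fold lower in 2i in TKO, and in 3B3l it was above background in neither medium. None of Cdkn1c, Esx1 and Gata2 was above background on all arrays of any 2i group. They passed the filter on low signals through serum groups alone, so the counts of falls include genes admitted where they were high. In serum 2 of the 14 were higher and 3 lower in 3B3l than in J1, and 3 were higher and 1 lower in TKO.

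The 8 epithelial genes of the trophectoderm separated the modified lines in serum. In 3B3l-serum 6 were called higher than in J1-serum and 0 lower (median 1.61), against 9.99% and 9.32% of all genes. In TKO-serum 0 were higher and 4 lower (median -0.83), against 7.71% and 8.73%. Krt18, a keratin of simple epithelia, was 1.90 ± 0.19 SE higher in 3B3l-serum on the log2 scale, and its difference in TKO-serum was -1.23 ± 0.19. Krt19 was 1.54 ± 0.13 higher in 3B3l-serum, and in 2i it was at least 60.5-fold lower in this line. Krt7 was 1.68 ± 0.18 higher in 3B3l-serum and at least 9.04-fold lower in this line in 2i. Dsp, which encodes desmoplakin, was 2.28 ± 0.17 higher in 3B3l-serum. In 2i against serum, 1 of the 8 rose and 3 fell in J1, 1 rose and 4 fell in TKO and 0 rose and 6 fell in 3B3l (median -3.86). Krt19 and Krt7 were above background on no 3B3l-2i array, so the last count and median include fitted values that are not measured folds. The filter on low signals also admits genes through the group in which they are high. These genes are expressed in other epithelia too, so they do not name a cell type.

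**Figure D5:**
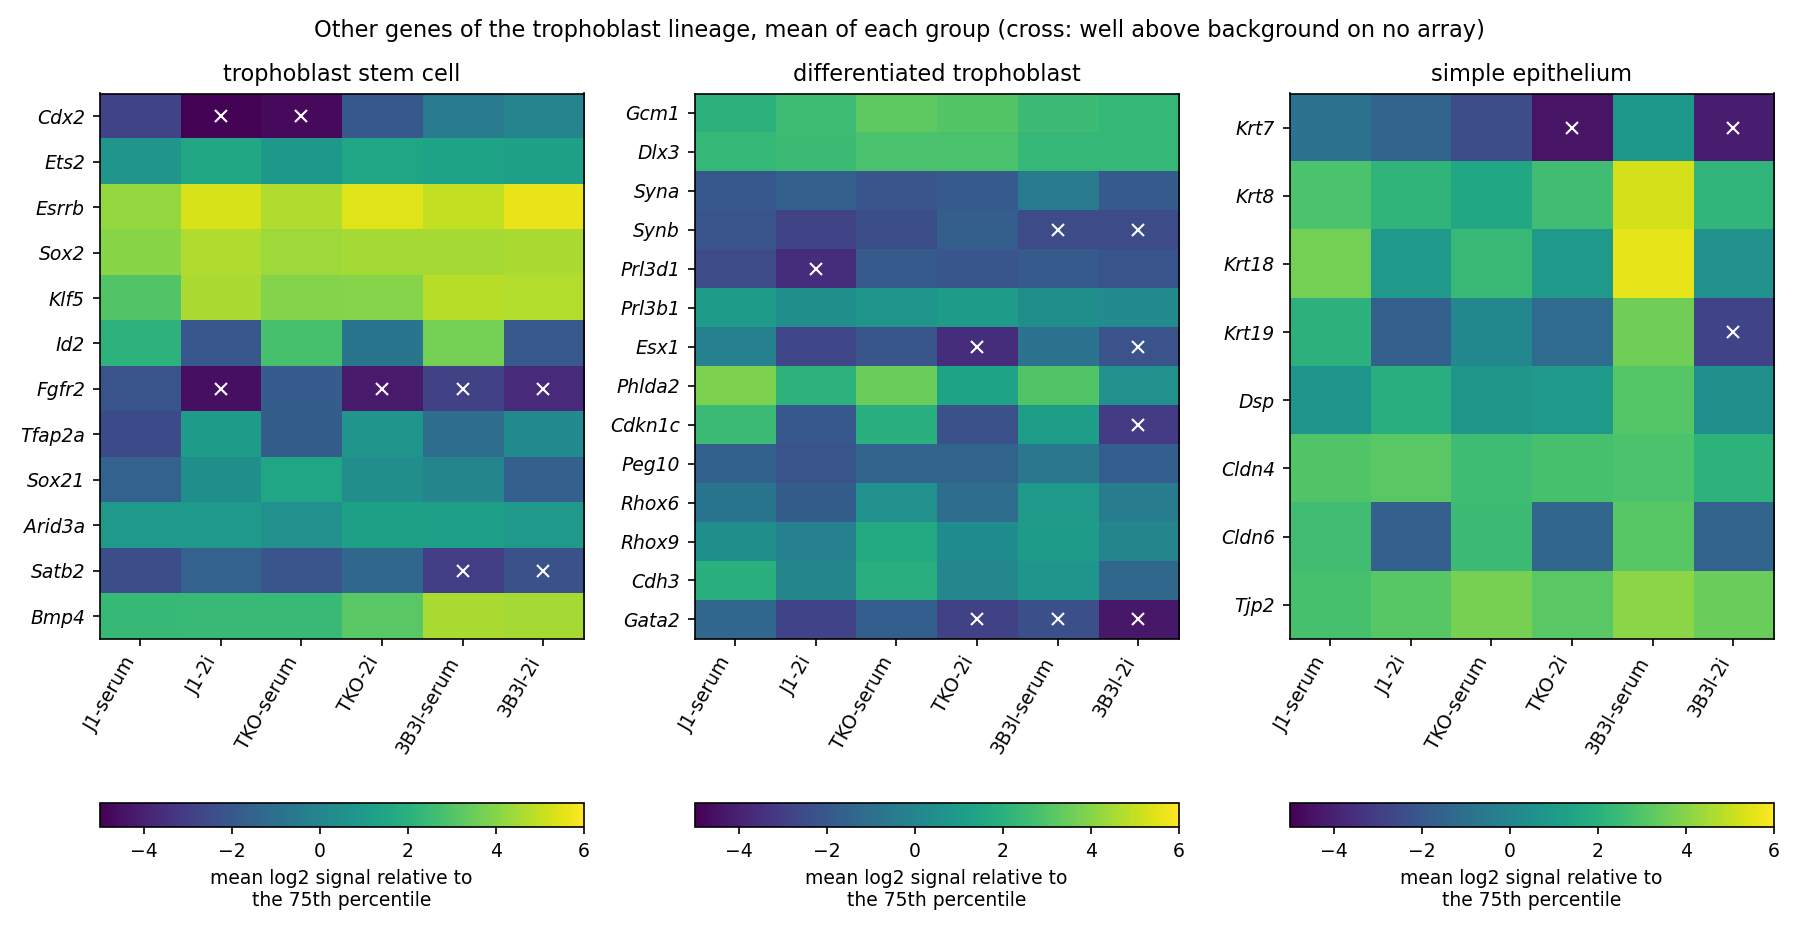
Mean log2 signal scaled to the array's 75th percentile (colour) in the 6 groups (columns) for the genes of the lineage lists (rows). A cross marks a gene above background on no array of the group. The epithelial keratins are brightest in 3B3l-serum, and Cdx2 is marked at background in J1-2i and TKO-serum.

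Of 12 genes of the Hippo pathway, which sets the activity of Tead4 and its coactivators, 11 were tested. In 2i 1 rose and 2 fell in J1, and 1 rose and 1 fell in TKO and in 3B3l alike, counts near the shares over all genes. Amot, an activator of the pathway, was at least 25.3-fold lower in 2i in J1 and at least 11.9-fold lower in 3B3l, and it fell by 2.38 on the log2 scale in TKO, with 2 of 3 TKO-2i arrays above background. Lats2, a kinase of the pathway, was at least 4.67-fold lower in 2i in J1 and was not called in TKO (0.35) or 3B3l (-0.67). Wwtr1, which encodes the coactivator TAZ, rose by 1.38 in TKO, and Stk3 rose by 1.02 in 3B3l. Over all 11 comparisons, Lats2 was called higher in 4, and Wwtr1 and Stk3 were called lower in 2 each. In serum 0 of the 11 were higher and 2 lower in TKO than in J1, and 0 were higher and 5 lower in TKO than in 3B3l, against 5.43% and 5.27% of all genes for the latter. Of 12 paralogues of the genes, 8 were tested, and 2 rose in each line in 2i while 2 fell in J1, 2 in TKO and 1 in 3B3l. Such small counts are not read as a result about the paralogues. Elf3, a paralogue of Elf5, rose in all 3 lines, by 1.19, 1.30 and 2.71 on the log2 scale in J1, TKO and 3B3l. Tfap2e was at least 2.73-fold lower in 2i in TKO, while it was called higher in 3 of the 11 comparisons.

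Across the 16 arrays, over 13613 genes, each gene's nearest neighbours by Pearson correlation of log2 values are given as a description, since the arrays fall into groups and share their scaling. Gata3, Plac1 and Hand1 were above background on 4, 5 and 2 arrays, so their correlations rest on those arrays and on background signals that have no order. Gata3 was most like Igfbp3 (r = 0.97), Fam83h (0.96) and Plac1 (0.95). Plac1 was most like Crct1 (0.97), Bspry (0.97) and Vgf (0.96), and Hand1 like Larp1 (0.96), Nedd4 (0.95) and Itga8 (0.93). Ascl2 was nearest to Pdzd4, Eno3 and Mboat1 (0.98 each). Tfap2c was nearest to Etl4 (0.94), Abcc4 (0.94) and Gucy1a2 (0.92), Eomes to Slc25a34 (0.96), Snx14 (0.96) and Ccdc51 (0.95), and Tead4 to Pkmyt1, Aff1 and Arpin (0.97 each). Among the genes above background on all arrays, Tead4 ran with Eomes (r = 0.78) and against Ascl2 (-0.85).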

How the data were processed

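Total RNA of mESC cultures was hybridised to 16 one-colour Agilent 8x60K arrays. The deposited files of the authors hold spot intensity from Agilent Feature Extraction 11.5.1.1, as per the file headers, with background-subtracted processed signals. The authors also deposited a table of normalized log2 values for 30170 probes, used as an alternative. Its best-matching array was of the right group for 16 of 16 columns and was the array of the same name for 3.

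Groups were taken from the sample labels. From the intensity values, control spots and outlier spots were left out, the processed signals were put on the log2 scale, each array was set to its 75th percentile, and replicate spots of each probe were averaged. A probe counted as above background where at least 50% of its spots were marked so. The 26990 probes above background throughout 1 or more groups were fitted with limma 3.58.1 in R 4.3.3 (6 group means, eBayes, 16 arrays, two-sided, Benjamini-Hochberg). Calls required a 2-fold change and an adjusted p of 0.05 or less in each of 11 comparisons. Lists and background shares were counted over genes by the probe with the highest mean. A fold is a bound where 1 group had no array above background. The script was tested on simulated data. The number of arrays limits the precision.

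The 8 genes and the lists were chosen with earlier results of these data known. The text names all 8 genes, the 3 genes most correlated with each, and at most 4 genes of each list, those called in the same direction in the most comparisons. Stem cell markers are all named, and markers of other cell types were named after their values were seen. Alternatives were array median and quantile scaling, normexp (offset 50), the authors' table, filters on dim probes, slide or replicate number as a block, no fold limit and leaving out each array.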

Additional observations from a re-analysis of the deposited data

Results flagged for a closer look

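The response to 2i of several trophoblast genes differed between lines when the difference itself was tested as an interaction in limma, with a 2-fold limit and an adjusted p of 0.05 or less. On the log2 scale, the response in TKO minus that in J1 was -1.49 for Tfap2c and -1.10 for Eomes. The response in 3B3l minus that in J1 was -2.03 for Tfap2c, -2.29 for Hand1, -1.52 for Gata3, -1.44 for Plac1 and -1.04 for Ascl2. That of Ascl2 was under 2-fold in the authors' table (-0.95) and after quantile normalization (-0.93). Tfap2c passed against J1 in both modified lines, and both tests share the J1 arrays. The J1 response also included the loss of feeders, which the responses of TKO and 3B3l did not. For Hand1, Gata3 and Plac1 these are fitted values only, since no 2i array of either line was above background for them, nor any J1-serum array for Hand1 and Gata3, and the size of the difference was not measured. In J1-serum, the group with 4 arrays, no array passed the limit of Dixon's test for any of the genes. The farthest array for Tfap2c was replicate 3, at 0.74 beside 1.26 to 1.44.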

How the results depend on the processing

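Over 24 alternatives, not counting that of no fold limit, 2068 single differences of the genes were recomputed. Of these, 2002 kept their call or lack of one, 39 lost the call and 27 gained it. None that was called under either setting changed direction, while the direction of differences called under neither was not counted. Of 40 called differences, 29 kept the call under all alternatives run. With probes above background on all 16 arrays alone, which leaves Gata3, Hand1 and Plac1 out, the number called was 3 instead of 5 for 2i in TKO, 3 instead of 6 for 2i in 3B3l, 1 instead of 4 for 3B3l against J1 in serum, 2 instead of 4 for TKO against 3B3l in serum, and 2 instead of 5 for the response of 3B3l minus J1. For TKO against J1 in serum it rose from 0 to 1 under array median scaling, quantile normalization, the authors' table, slide as a block and the replicate block, and to 5 with no fold limit. For 3B3l against J1 in 2i it rose from 0 to 1 under array median scaling, quantile normalization, normexp, the authors' table, the replicate block and no fold limit, and to 2 with slide as a block. With no fold limit it was 2 instead of 1 for TKO against J1 in 2i and 7 instead of 4 for 3B3l against J1 in serum. Under normexp it was 1 instead of 4 for TKO against 3B3l in serum and 3 instead of 5 for the response of 3B3l minus J1. With slide as a block it was 2 instead of 1 for TKO against 3B3l in 2i. The cause was not tested where the filter or the fold limit does not give it.

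Without 1 array at a time, the number called was 6 for 2i in J1, 4 to 5 in TKO and 6 in 3B3l. It was 0 to 1 for TKO against J1 in serum, 3 to 5 for 3B3l against J1 in serum, 0 to 1 for 3B3l against J1 in 2i, 1 to 4 for TKO against 3B3l in serum and 1 in 2i, 1 to 3 for the response of TKO minus J1 and 2 to 5 for that of 3B3l minus J1. Groups left with 1 array were assumed to vary like the others. Deviations from the group means had correlations of -0.27 to 0.29 between same-numbered replicates of different groups, with 6 of 33 over 0.1. Between replicates of other numbers they ran from -0.41 to 0.34, with 17 of 72 over 0.1. These values gave no sign of pairing by number. In groups of 2 arrays the deviations mirror each other, so they cannot show whether the samples were paired. With the replicate number as a block, 6, 5 and 6 genes were called for 2i in J1, TKO and 3B3l. Array median scaling moved the median of all tested probes from 0.05 to 0.18 for 2i in J1. Most groups have 2 or 3 arrays, Gata3, Hand1 and Plac1 lie near background, and differences below it cannot be measured.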
